A study of Rattus norvegicus with 36 samples.

Results

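Binding of the glucocorticoid receptor (GR) to hippocampal chromatin was compared between trained and untrained rats that had all received corticosterone. The comparison covers the 5307 GR regions among the 20029 regions of the study, the other 14722 being regions of phosphorylated CREB (pCREB). All regions in the GR list were taken, and they were also divided into those that share 1 bp or more with a pCREB region, 4253 (80.1%), and those that share none, 1054 (19.9%).

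Corticosterone is the main glucocorticoid of rats. GR is a nuclear receptor that binds DNA as a transcription factor once such a hormone has bound to it, and in the hippocampus it is known for its part in the effect of stress hormones on memory. CREB is a transcription factor that is phosphorylated by kinases downstream of neuronal activity and is known for its role in forming long-term memory. The comparison asks whether learning altered GR occupancy when the hormone was high in both groups.

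The trained corticosterone group and the untrained corticosterone group had 4 GR libraries each, named A to D. Trained vehicle and untrained vehicle groups, also of 4 GR libraries each, entered the model for the spread between libraries. All rats were male Sprague-Dawley rats. The sources used here do not give the dose, the time of treatment or the training task. For each library, chromatin fixed with 1% formaldehyde was pooled from 2 rats (4 hippocampi), and the pool was split between an anti-GR antibody (H-300) and an antibody against pCREB. The unit of replication is therefore a pool of 2 rats, and GR and pCREB libraries of a pool share their chromatin. The hippocampus holds many cell types, so that GR bound in fewer cells and less GR bound per cell cannot be told apart. Trained corticosterone libraries carry the lane number 8 and untrained corticosterone libraries the lane number 6, so that lane and training cannot be told apart. Trained vehicle libraries carry the number 7 and untrained vehicle libraries the number 5. Lane can therefore also not be told apart from training in vehicle rats, from the hormone effect or from their interaction.

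Library depth and composition varied within both groups. The trained corticosterone libraries A, B, C and D held 117868, 149254, 134144 and 173176 reads in GR regions, against 111884, 120812, 105690 and 139482 reads in the untrained corticosterone libraries A, B, C and D. The log2 total averaged 17.12 ± 0.24 in trained and 16.86 ± 0.17 in untrained libraries (SD, n = 4 each), and the exact two-sided permutation test over libraries gave p = 0.143. Peaks had been called in each library by the authors, and 3437, 4849, 3659 and 4657 GR regions had a call in trained libraries A to D, against 2869, 513, 3926 and 3094 in untrained libraries A to D. The number with a call averaged 4150.5 ± 706 in trained and 2600.5 ± 1464 in untrained libraries, a difference of 1550 regions that did not pass the exact permutation test (p = 0.0857). Without untrained library B this difference was 854 regions (exact permutation p = 0.171). The smallest p this design allows is 0.0286, and 5 such summaries were compared, with Benjamini-Hochberg adjusted p of 0.357 for both totals and calls.

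Untrained corticosterone library B stood apart from the others. It had the fewest calls of the 8 libraries, with 513, and 22.9% of its reads lay in the 3 mitochondrial regions, against 7.66% to 17.3% in trained libraries and 8.87% to 10.6% in the other untrained libraries. The mitochondrial share averaged 12.7% ± 4.36 in trained and 12.9% ± 6.77 in untrained libraries (SD, n = 4 each; exact permutation p = 1), and without untrained library B the trained mean was 3.24 percentage points the higher. At the regions with a call in a given library, that library's own count column was the highest of the 16 GR columns for 15 of 16 libraries. The exception was untrained corticosterone B, whose own column ranked 2, behind that of untrained vehicle B. The counts of called regions, class medians, library shares, spreads and peak-call counts are therefore also given without this library, the spreads, level classes and peak-call counts as an alternative chosen after the data were seen.

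**Figure D1:**
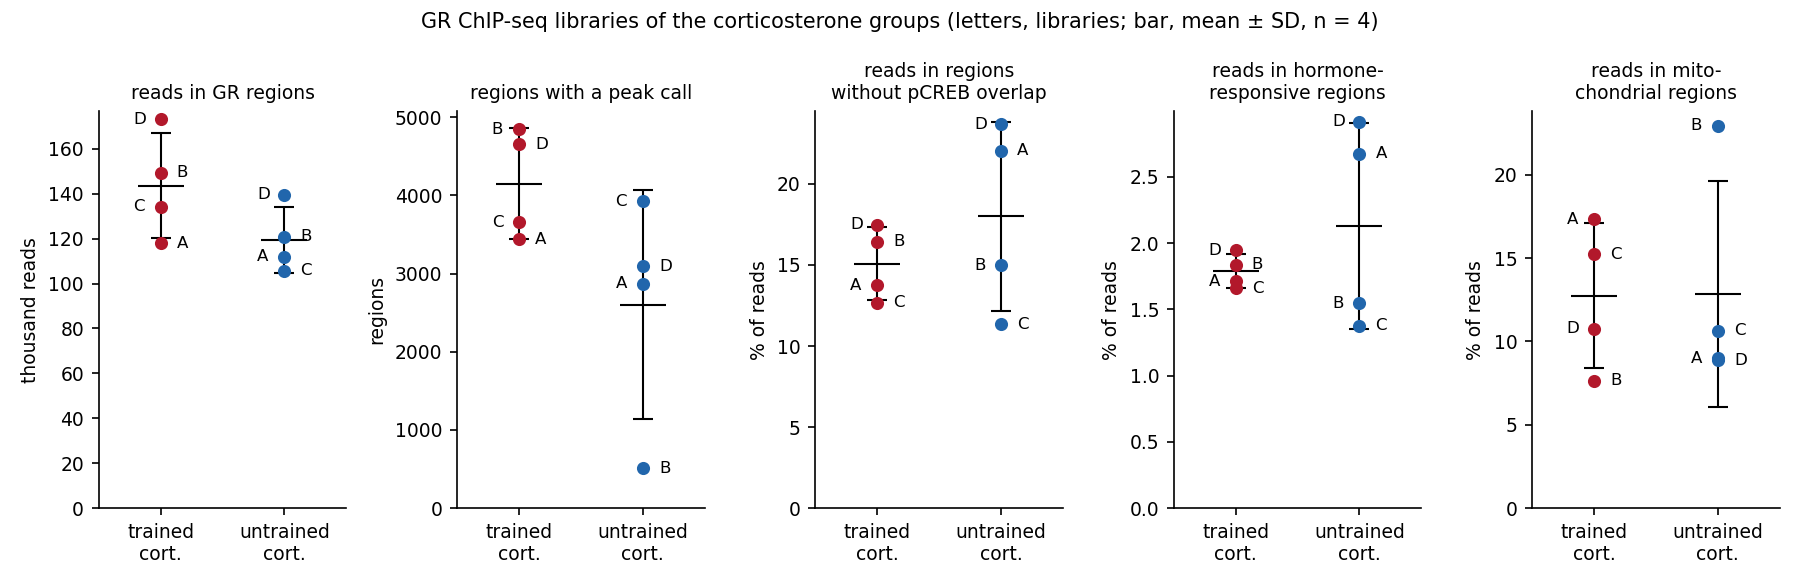
Each panel plots 1 summary of the GR libraries of trained (left, red) and untrained (right, blue) corticosterone rats: reads in GR regions, regions with a peak call, and the percent of reads in regions without pCREB overlap, in hormone-responsive regions and in mitochondrial regions. Letters name libraries and bars give the mean ± SD (n = 4 each); the groups overlap in every panel, and untrained library B is lowest in calls (513) and highest in mitochondrial reads (22.9%).

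No GR region passed the test for a difference between trained and untrained rats under corticosterone. After a filter on low counts 4968 of the 5307 regions were tested with edgeR's quasi-likelihood test, and 0 (0%) had a Benjamini-Hochberg adjusted p under 0.05. The smallest edgeR adjusted p was 0.429. At an unadjusted p under 0.05 there were 184 regions (3.7%), of which 98 (1.97%) were higher in trained and 86 (1.73%) lower. DESeq2 also called 0, with 163 regions at an unadjusted p under 0.05. Without untrained library B the counts were 0 called and 190 at an unadjusted p under 0.05.

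The size of difference that the libraries could resolve varied between regions. The median log2 fold change of trained over untrained was -0.02 over all tested regions, with a median standard error of 0.35 per region. The middle 90% of regions lay between -0.65 and 0.61. The 95% confidence interval lay wholly within a 2-fold change in either direction at 2625 of 4968 regions (52.8%). At the other regions a 2-fold difference in at least 1 direction lay inside the interval. The 4 trained libraries were all higher than the 4 untrained libraries at 99 regions (1.99%) and all lower at 87 regions (1.75%).

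**Figure D2:**
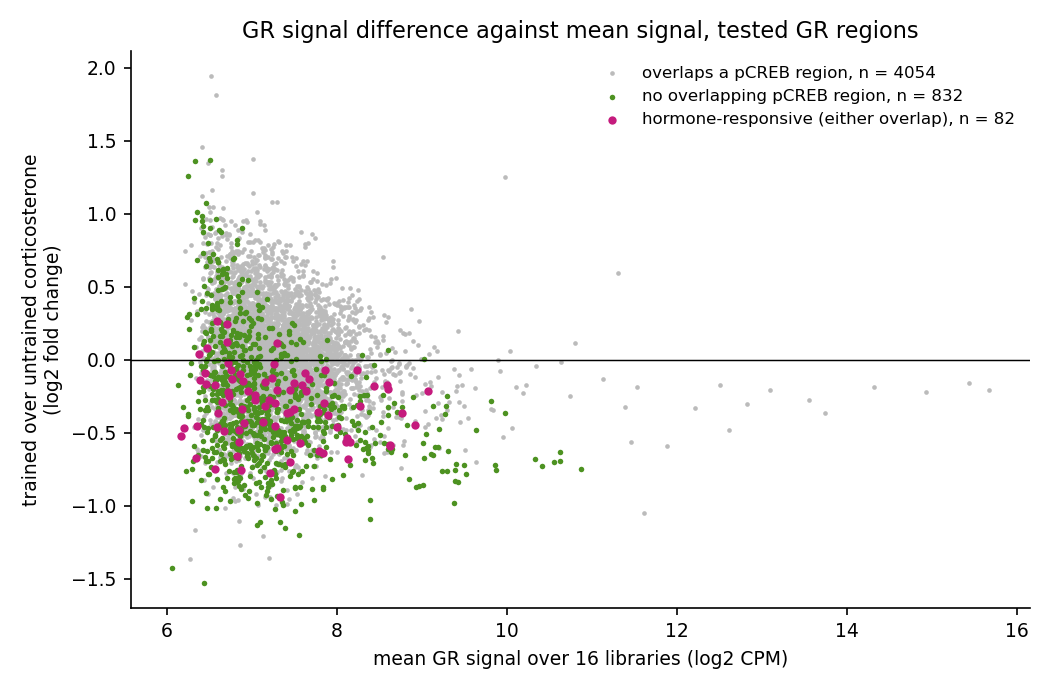
Each point is 1 of the 4968 tested GR regions, with its mean signal over the 16 GR libraries (log2 CPM) on the horizontal axis and the log2 fold change of trained over untrained corticosterone rats on the vertical axis. Grey points overlap a pCREB region, green points do not, and magenta points are the 82 hormone-responsive regions; no point passed the test, fold changes spread between -1.53 and 1.94, and green points lie mostly below 0.

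Regions without an overlapping pCREB region had lower GR signal in trained than in untrained libraries at most positions, though none passed the test. Of these 1054 regions 904 were tested, and 709 of them (78.4%) had a negative log2 fold change, with a median of -0.34 and quartiles of -0.58 and -0.07. Over all tested regions 2566 (51.7%) were negative. Among the 904, 6 were higher and 35 lower at an unadjusted p under 0.05 (together 4.54%, against 3.7% of all tested regions). The libraries did not overlap at 8 higher (0.885%) and 26 lower regions (2.88%), against 1.99% and 1.75% of all tested regions. The median level was 367 CPM per kb in trained and 475 CPM per kb in untrained libraries, where CPM are edgeR's normalised counts scaled by library size. Their 95% interval lay within a 2-fold change at 142 regions (15.7%), and the median standard error was 0.45.

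Among regions without pCREB overlap, the negative log2 fold change was larger at regions of higher signal. When all tested regions were divided into 4 equal classes by mean level, the medians at regions without overlap were -0.17, -0.32, -0.46 and -0.46, low to high, with 224 of 353, 166 of 204, 143 of 165 and 176 of 182 regions negative. At overlapping regions the medians of the same classes were 0.14, 0.04, 0.04 and -0.04. Without untrained library B the class medians were -0.21, -0.36, -0.48 and -0.44 at regions without overlap and 0.17, 0.06, 0.03 and -0.03 at overlapping regions. The medians also fell with level in vehicle rats. There trained over untrained gave -0.05, -0.10, -0.15 and -0.36 at regions without overlap, so the order was not particular to corticosterone.

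The size of this difference rested on untrained library D and was not uniform over untrained libraries. The share of reads in regions without pCREB overlap was 13.7%, 16.4%, 12.7% and 17.5% in trained libraries A to D, against 22.05%, 15.0%, 11.4% and 23.7% in untrained libraries A to D. Untrained libraries A and D lay above all trained libraries, and untrained library C lay below all of them. The means were 15.1% ± 2.24 in trained and 18.0% ± 5.83 in untrained libraries (SD, n = 4 each; exact permutation p = 0.4, adjusted p 0.536), and the difference without untrained library B was -3.94 percentage points (exact permutation p = 0.343). Without untrained library D the median log2 fold change was -0.10, with 553 of 933 regions negative, and without untrained library C it was -0.52, with 774 of 948 negative. Without untrained library B it was -0.36, with 746 of 949 negative. In the vehicle libraries the same share ran from 7.24% to 25.4% over both groups.

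Regions that overlapped a pCREB region had a median GR difference near 0. Of 4253 such regions 4064 were tested, and their median log2 fold change was 0.04, with 1857 (45.7%) negative. This small positive median was -0.01 when scaling factors were taken from the overlapping regions themselves and 0.13 when libraries were scaled by total reads. The main scaling used all 4968 tested regions, most of which overlap, so it favours a median near 0 here. A change of GR signal shared by most regions could therefore not be seen, and the values at regions without overlap are relative to the overlapping ones. At an unadjusted p under 0.05, 92 were higher and 51 lower (together 3.52%), a share near the 3.7% of all tested regions. The libraries did not overlap at 91 higher (2.24%) and 61 lower regions (1.501%), against 1.99% and 1.75% of all tested regions. The median level was 296 CPM per kb in trained and 284 CPM per kb in untrained libraries. The 95% interval lay within a 2-fold change at 2483 regions (61.1%), with a median standard error of 0.33, and without untrained library B the median was also 0.04. The division by overlap was described and not tested, and the overlapping regions were wider, with a median of 421 bp over all listed regions against 309 bp for the others.

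**Figure D3:**
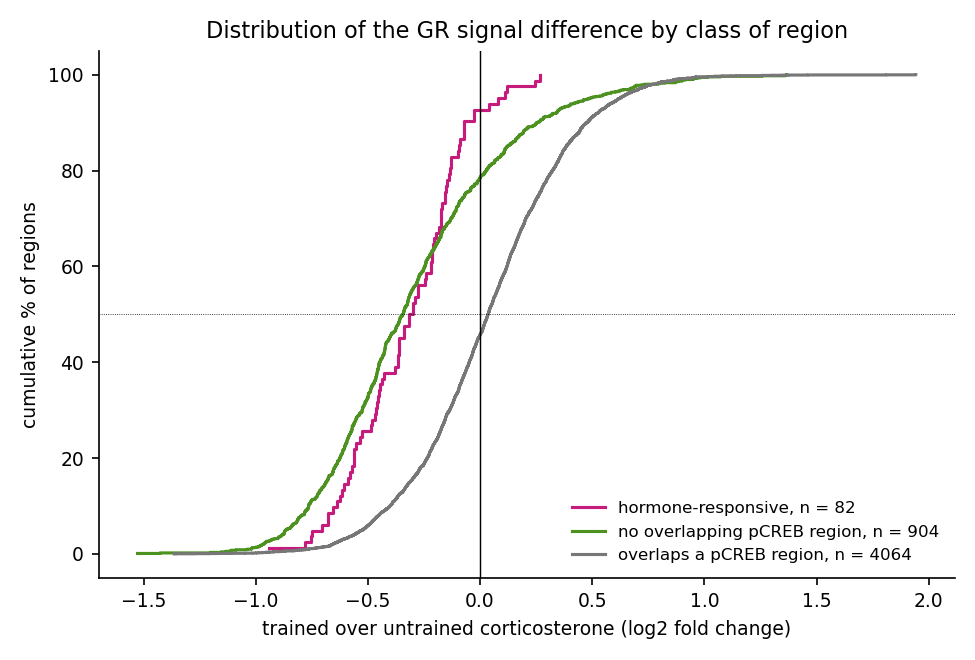
Cumulative percent of regions (vertical axis) up to a given log2 fold change of trained over untrained corticosterone rats (horizontal axis), for 82 hormone-responsive regions, 904 regions without and 4064 with an overlapping pCREB region. The curve of overlapping regions crosses 50% at 0.04, that of regions without overlap at -0.34 and that of hormone-responsive regions at -0.31.

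Regions where GR binding followed the hormone were looked at as a class of their own. They were the 82 regions (1.65% of those tested) that were higher after corticosterone than after vehicle when trained and untrained rats were averaged, at an edgeR adjusted p under 0.05. That average gives trained and untrained rats equal weight, but it is independent of the training difference only where both groups have the same spread. At these regions the median standard deviation of log2 CPM was 0.278 in trained and 0.653 in untrained corticosterone libraries. The choice can thus favour regions where untrained libraries ran high, and its part in the values below was not tested. Of the 82 regions, 72 lacked an overlapping pCREB region and 10 had one. Their training difference under corticosterone had a median log2 fold change of -0.31 and ran from -0.94 to 0.27, with 76 of 82 (92.7%) negative, against 51.7% over all tested regions. The 832 tested regions without overlap that were not hormone-responsive had a median of -0.35, with 77.3% negative. A negative median was therefore not particular to hormone-responsive regions. None passed the test in edgeR, and none in DESeq2. At an unadjusted p under 0.05, 0 were higher and 3 lower (3.66%, against 3.7% of all tested regions for both directions together and 1.73% for lower ones). Over the 96 tested regions that DESeq2's average contrast called, the median was -0.32.

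The 95% interval excluded a 2-fold higher signal in trained rats at 80 of the 82 regions, and excluded a 2-fold lower signal at 29. Over all 4968 tested regions it excluded a 2-fold higher signal at 3860 and a 2-fold lower signal at 3613. The lowest value was at chr11:77467099-77467439 (log2 fold change -0.94, SE 0.27) and the highest at chr12:24446543-24446837 (0.27, SE 0.44). The 72 regions without overlap had a median of -0.33 and the 10 with overlap a median of -0.21, all 10 negative. The median level was 486 CPM per kb in trained and 624 CPM per kb in untrained libraries.

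The trained libraries sat close together at hormone-responsive regions, and the untrained libraries lay on both sides of them. These regions took 1.71%, 1.84%, 1.66% and 1.95% of reads in trained libraries A to D, against 2.68%, 1.55%, 1.38% and 2.92% in untrained libraries A to D. By this share untrained libraries A and D were above all trained libraries, and untrained libraries B and C below all of them. For untrained library B this order held only with mitochondrial reads in the total. With mitochondrial regions left out its share was 2.01%, between the 1.99% of trained library B and the 2.07% of trained library A. Untrained library C (1.54%) stayed below all trained libraries, and untrained libraries A (2.94%) and D (3.20%) above them. With mitochondrial reads counted, the means were 1.79% ± 0.128 in trained and 2.13% ± 0.780 in untrained libraries (SD, n = 4 each; exact permutation p = 0.429, adjusted p 0.536). The difference without untrained library B was -0.534 percentage points (exact permutation p = 0.286). The vehicle libraries held 0.314% to 0.936%, as the choice of these regions requires.

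Single libraries decided the size of the median at hormone-responsive regions. Relative to the mean of the 8 corticosterone libraries, the median log2 signal was -0.13, -0.00, -0.19 and -0.03 in trained libraries A to D and 0.44, 0.08, -0.60 and 0.71 in untrained libraries A to D. Untrained library D was the highest of the 8 at 49 of the 82 regions and untrained library A at 26, while untrained library C was the lowest at 47. Without untrained library D the median log2 fold change was -0.10, with 55 of 82 regions negative. Without untrained library C it was -0.52, with 79 negative, without untrained library A it was -0.23, with 63 negative, and without untrained library B it was -0.35, with 78 negative.

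**Figure D4:**
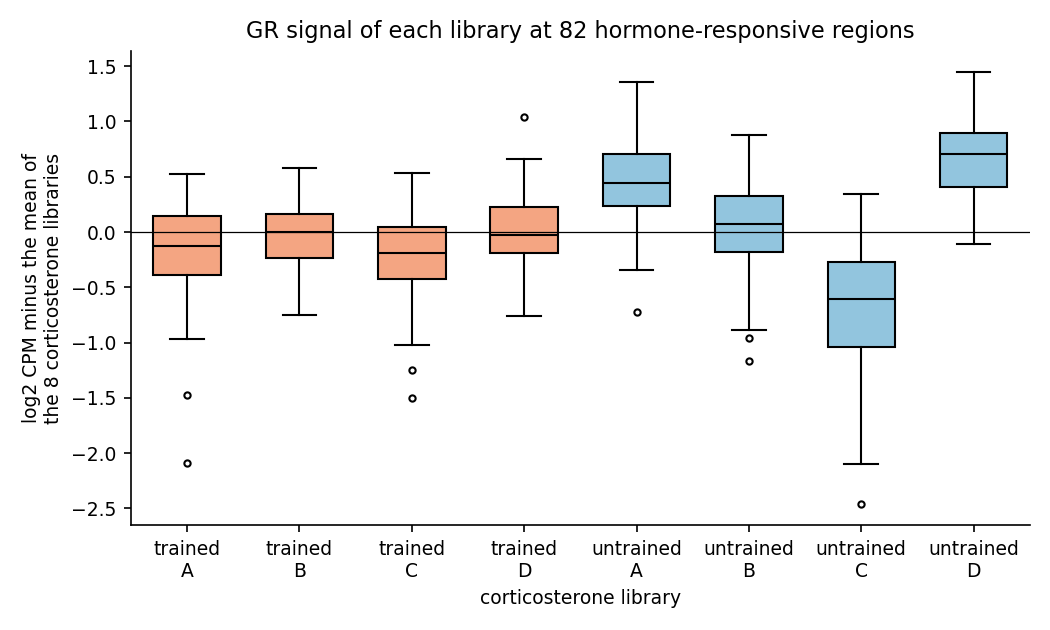
For each of the 8 corticosterone libraries (horizontal axis, trained in orange on the left and untrained in blue on the right), a box shows the log2 CPM at 82 hormone-responsive regions minus each region's mean over the 8 libraries. Lines mark medians, boxes the quartiles, whiskers the range of the other regions and circles far single regions; the trained medians lie between -0.19 and -0.00, the untrained medians between -0.60 (C) and 0.71 (D).

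The spread between libraries was wider in untrained than in trained rats under corticosterone. The median standard deviation of log2 CPM over all tested regions was 0.358 in trained and 0.458 in untrained libraries, and the untrained value was the larger at 3183 of 4968 regions (64.1%). At overlapping regions the medians were 0.348 in trained and 0.423 in untrained libraries, and at regions without overlap they were 0.416 in trained and 0.680 in untrained libraries. At hormone-responsive regions they were 0.278 in trained and 0.653 in untrained libraries, with the untrained value larger at 73 of 82 (89.0%). Without untrained library B the untrained medians were 0.435 over all tested regions, 0.392 at overlapping regions, 0.738 at regions without overlap and 0.727 at hormone-responsive regions, and the untrained value was the larger at 2982 of 4968 regions (60.0%). No test was made of these spreads. The vehicle groups had the same order, with 0.810 in trained and 1.203 in untrained libraries at hormone-responsive regions. The trained corticosterone libraries were also deeper on average, and the part of depth in this spread was not tested.

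The 10 hormone-responsive regions named by rule were those with the smallest p for the average hormone effect and a mean level above the median. All 10 had a negative log2 fold change of trained over untrained, from -0.94 to -0.07, and their edgeR adjusted p lay between 0.966 and 0.988. The region with the strongest hormone effect by p, chr10:16942351-16942910, held 34, 43, 43 and 39 reads in trained libraries A to D and 49, 36, 23 and 91 reads in untrained libraries A to D. In CPM the groups overlapped, since untrained library C was below all trained libraries and untrained libraries A, B and D above them. Its signal was 271 ± 41.2 CPM in trained and 414 ± 190 CPM in untrained libraries (SD, n = 4 each), a log2 fold change of -0.63 (SE 0.30, 95% interval -1.25 to -0.00, edgeR adjusted p 0.966). It had 38.5 CPM in trained vehicle and 66.2 CPM in untrained vehicle libraries.

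The region with the highest GR signal after corticosterone among the 10, chr10:59884799-59885334, held 75, 107, 109 and 106 reads in trained libraries A to D, against 83, 50, 75 and 214 in untrained libraries A to D. Untrained library D alone was above the trained range in CPM, with 1556 CPM against 575 to 775 CPM in trained libraries. The group means were 671 ± 89.0 CPM in trained and 860 ± 471 CPM in untrained libraries, and the log2 fold change was -0.36 (SE 0.47, interval -1.35 to 0.63). Without untrained library D it was 0.10.

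At chr15:58884552-58885070 the reads were 54, 96, 83 and 95 in trained libraries A to D, against 105, 42, 30 and 125 in untrained libraries A to D. Signal averaged 548 ± 82.5 CPM in trained and 627 ± 328 CPM in untrained libraries, a log2 fold change of -0.20 (SE 0.42). Again untrained libraries A and D were above and B and C below all trained libraries. At chr17:5971448-5971815 the reads were 28, 49, 44 and 57 in trained and 53, 32, 18 and 78 in untrained libraries, with a log2 fold change of -0.36 (SE 0.35).

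The narrowest limits among the 10 were at chr11:31424285-31424773, which overlaps a pCREB region. It held 28, 54, 45 and 57 reads in trained libraries A to D and 41, 24, 29 and 58 reads in untrained libraries A to D. Its signal was 305 ± 52.4 CPM in trained and 319 ± 83.2 CPM in untrained libraries, and its log2 fold change of -0.07 had a 95% interval of -0.62 to 0.48. The interval lay within a 2-fold change at 4 of the 10 regions. Of the remaining named regions, chr16:48053796-48054088, chr19:57346524-57346864 and chr17:40485671-40486256 had log2 fold changes of -0.16, -0.13 and -0.13, and chr3:2251775-2252102 had -0.61 (SE 0.40).

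One of the 10, chr11:77467099-77467439, had groups that did not overlap. It held 20, 22, 19 and 25 reads in trained libraries A to D, against 32, 28, 22 and 49 reads in untrained libraries A to D. In CPM the trained libraries lay between 135 and 166 and the untrained libraries between 192 and 356. The group means were 146 ± 14.7 CPM in trained and 278 ± 67.8 CPM in untrained libraries, a log2 fold change of -0.94 (SE 0.27, edgeR adjusted p 0.966). In vehicle rats it had 63.7 ± 26.3 CPM in trained and 67.8 ± 16.7 CPM in untrained libraries. The test of the interaction between training and hormone gave -0.78 (SE 0.48, edgeR adjusted p 1) there.

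**Figure D5:**
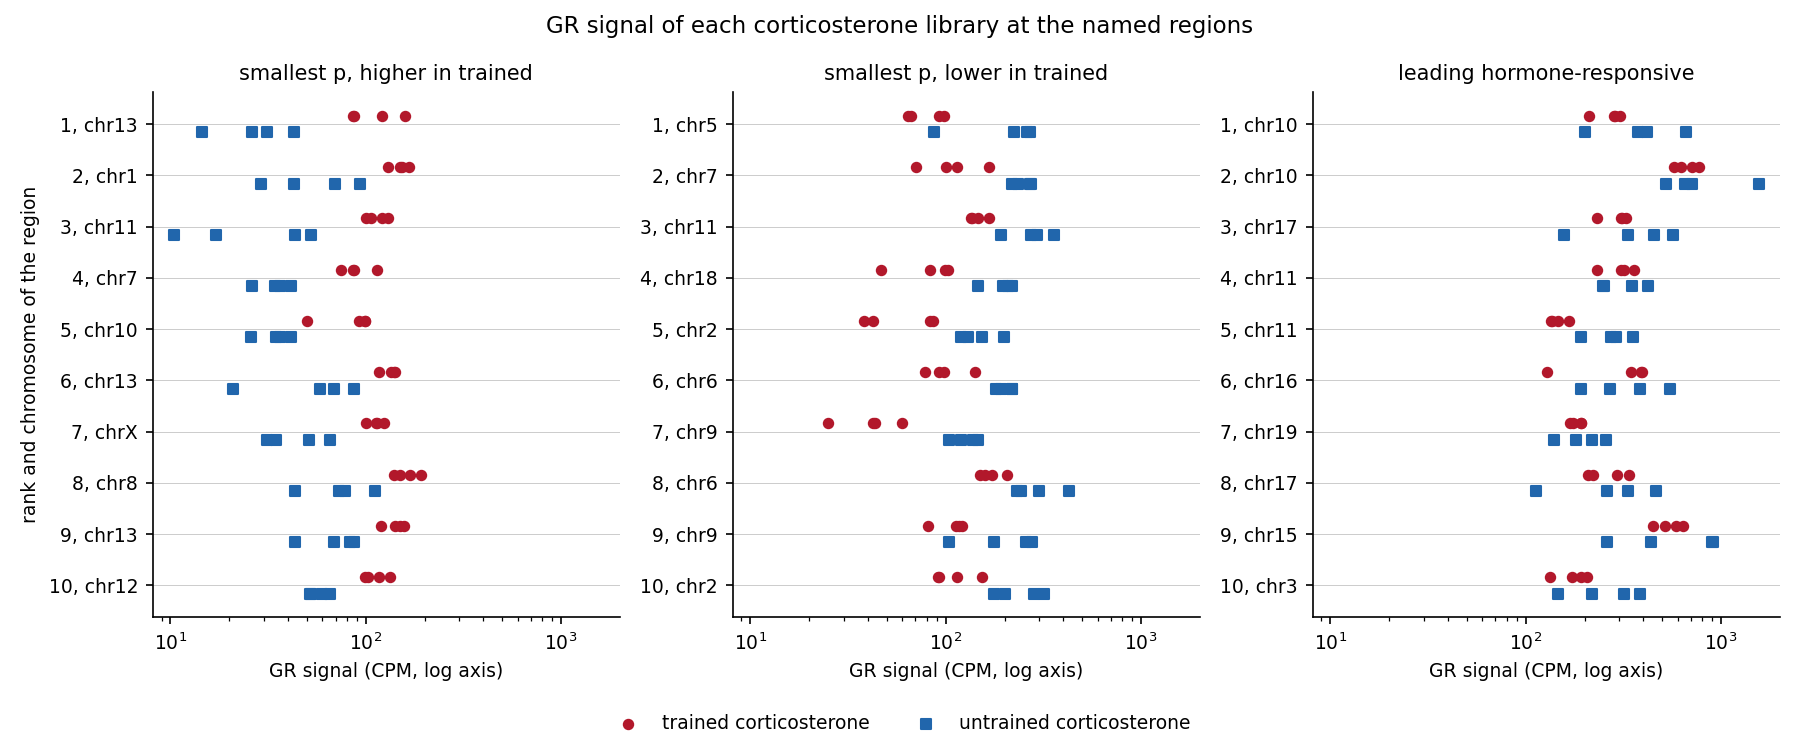
GR signal in CPM (log axis) of each trained (red circles) and untrained (blue squares) corticosterone library at the 10 regions with the smallest p that were higher in trained, the 10 that were lower, and the 10 leading hormone-responsive regions, by rank and chromosome. Groups do not overlap at 10 of the 10 higher, 8 of the 10 lower and 1 of the 10 hormone-responsive regions; the first 2 panels were chosen by this difference.

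Single regions were named by the smallest p in each direction. Over all GR regions the median count was 15 to 23 in trained and 12 to 17 in untrained corticosterone libraries, and the 10 leading higher regions held 6 to 31 reads per trained library and 1 to 13 reads per untrained library. Their log2 fold changes were 0.95 to 1.94, and edgeR adjusted p ran from 0.429 to 0.966, so that none passed. They were chosen by p, so their fold changes are given as a description. Of the 10, 9 overlapped a pCREB region, and none was hormone-responsive. Among all 4968 tested regions 4064 overlapped one and 82 were hormone-responsive.

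The first, chr13:69493558-69493863, held 19, 13, 17 and 16 reads in trained libraries A to D and 5, 3, 3 and 2 reads in untrained libraries A to D. Every trained library was above every untrained library. Signal was 113 ± 34.2 CPM in trained and 28.7 ± 11.7 CPM in untrained libraries (SD, n = 4 each), a 3.84-fold difference (log2 fold change 1.94, SE 0.42, edgeR adjusted p 0.429). The DESeq2 adjusted p was 0.634. In vehicle rats the region had 89.3 ± 3.82 CPM in trained and 61.3 ± 14.0 CPM in untrained libraries. All 4 trained corticosterone libraries and 0 untrained corticosterone libraries had a peak call there.

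At chr1:36361139-36361388 the reads were 20, 23, 21 and 24 in trained libraries A to D, against 5, 9, 8 and 4 in untrained libraries A to D. Signal was 150 ± 15.0 CPM in trained and 58.8 ± 28.7 CPM in untrained libraries (log2 fold change 1.37, SE 0.33, edgeR adjusted p 0.777). The groups were apart at this region too, with vehicle values of 125 ± 20.7 CPM in trained and 108 ± 26.6 CPM in untrained libraries.

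At chr11:79710601-79710854 the reads were 12, 16, 17 and 24 in trained libraries A to D, against 2, 1, 6 and 6 in untrained libraries A to D. Signal was 114 ± 13.8 CPM in trained and 30.9 ± 20.2 CPM in untrained libraries (log2 fold change 1.81, SE 0.45, edgeR adjusted p 0.777). The order in vehicle rats was the other way, with 69.4 ± 25.6 CPM in trained and 90.8 ± 49.0 CPM in untrained libraries. The interaction at this region was 2.21 (SE 0.64), and it did not pass after edgeR's adjustment (adjusted p 1).

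The only leading higher region without an overlapping pCREB region was chr7:36475171-36475434. It held 9, 13, 16 and 16 reads in trained libraries A to D, against 4, 4, 3 and 5 in untrained libraries A to D (log2 fold change 1.37, SE 0.38). Its vehicle signal was 84.0 ± 5.73 CPM in trained and 90.2 ± 22.5 CPM in untrained libraries, close to the 90.4 ± 16.5 CPM of trained corticosterone libraries and above the 34.6 ± 6.45 CPM of untrained corticosterone libraries. On the X chromosome, chrX:47422884-47423119 held 12, 17, 16 and 23 reads in trained libraries A to D and 6, 3, 4 and 9 in untrained libraries A to D (1.26, SE 0.39). That region had a positive value in vehicle rats as well, with 133 ± 68.4 CPM in trained and 31.9 ± 11.8 CPM in untrained vehicle libraries.

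At the other leading higher regions the log2 fold changes were 1.30 at chr10:75291146-75291478, 1.14 at chr13:108409114-108409560, 1.08 at chr8:80138005-80138453, 1.01 at chr13:106728083-106728634 and 0.95 at chr12:7672610-7673117. The next region by p, chr12:42244463-42244912, had 0.95. At 9 of the 10 leading higher regions the untrained corticosterone mean was the lowest of all 4 groups, and at 5 of them the trained corticosterone mean was the highest. The choice by difference from the untrained corticosterone group favours such an order.

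The 10 leading lower regions had log2 fold changes of -1.53 to -0.81 and an edgeR adjusted p of 0.966 each. They held 3 to 32 reads per trained library and 10 to 59 reads per untrained library. Of the 10, 6 overlapped a pCREB region, against 4064 of all 4968 tested regions, and the libraries did not overlap at 8. The first by p, chr5:127586858-127587201, held 8, 14, 9 and 18 reads in trained libraries A to D, against 26, 25, 10 and 37 in untrained libraries A to D. Untrained library C lay within the trained range there. Signal was 80.3 ± 17.4 CPM in trained and 210 ± 84.2 CPM in untrained libraries (log2 fold change -1.36, SE 0.37).

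At chr7:52734589-52734845, which has no overlapping pCREB region, the reads were 12, 25, 16 and 13 in trained libraries A to D and 32, 21, 27 and 37 in untrained libraries A to D. In CPM the groups were apart, with 112 ± 39.9 in trained and 249 ± 26.7 in untrained libraries (log2 fold change -1.15, SE 0.32, edgeR adjusted p 0.966). All 8 libraries had a peak call there. In vehicle rats the order was the other way, with 137 ± 51.7 CPM in trained and 98.5 ± 43.3 CPM in untrained libraries.

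The most negative value among the leading lower regions was at chr9:44041713-44041971, with 3, 9, 6 and 8 reads in trained libraries A to D and 14, 14, 12 and 19 in untrained libraries A to D. Signal was 42.7 ± 14.2 CPM in trained and 127 ± 18.5 CPM in untrained libraries (log2 fold change -1.53, SE 0.50). The 4 trained libraries lay below the 4 untrained libraries, and 0 trained and 3 untrained libraries had a peak call. At chr18:32055916-32056172 the reads were 10, 7, 14 and 19 in trained and 23, 14, 24 and 30 in untrained libraries A to D, with a log2 fold change of -1.21 (SE 0.38).

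The remaining leading lower regions had values of -1.27 at chr2:211353030-211353270, -0.99 at chr6:9482406-9482708, -0.81 at chr6:145363021-145363401, -0.94 at chr9:1710902-1711256 and -1.11 at chr2:210657001-210657309. The next region by p, chr1:124832205-124832688, had -1.04. At 10 of the 10 leading lower regions the untrained corticosterone mean was the highest of the 4 groups, and at 4 the trained corticosterone mean was the lowest, an order that the choice of regions again favours. Among these 10, chr11:77467099-77467439 was the only hormone-responsive region.

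Training was also compared in rats given vehicle, and the difference between both training effects was tested. In vehicle rats 0 of 4968 GR regions (0%) passed in edgeR, with 152 (3.06%) at an unadjusted p under 0.05, and DESeq2 called 0, with 131. The median log2 fold change of trained over untrained vehicle was -0.02 over all regions, 0.00 at overlapping regions, -0.13 at regions without overlap and -0.17 at hormone-responsive regions. The interaction of training and hormone passed at 0 regions in edgeR, with 184 (3.7%) at an unadjusted p under 0.05, and at 0 in DESeq2, with 151. Without untrained corticosterone library B both stayed at 0 in edgeR, with 170 regions at an unadjusted p under 0.05 for training in vehicle rats and 183 for the interaction. A training effect that depended on hormone was thus not detectable at single GR regions at this depth.

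The pCREB libraries of the same pools were tested in the same way. Among them trained corticosterone library A was shallow, with 143219 reads in pCREB regions and 1169 regions with a call. Trained corticosterone libraries B to D held 323554 to 543497 reads and 8573 to 12882 regions with a call. Of 14553 tested pCREB regions 0 (0%) passed for trained over untrained corticosterone in edgeR, with 452 (3.11%) at an unadjusted p under 0.05, and DESeq2 called 0, with 375. Without pCREB trained corticosterone library A edgeR also called 0, with 473 at an unadjusted p under 0.05. At 4057 GR regions whose overlapping pCREB region was also tested, the median log2 fold change was 0.04 for GR and 0.03 for pCREB. Of these, 141 had an unadjusted p under 0.05 for GR and 96 for pCREB. The 9 regions with such a p for both were 6.38% of those 141, while 96 of all 4057 regions had such a p for pCREB. They were 9.38% of those 96, against 3.52% of all tested overlapping GR regions with such a p for GR. Both antibodies share their chromatin pools, and this overlap was not tested.

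Values of pCREB at the leading GR regions were set beside those of GR. At the first, the pCREB region chr13:69493508-69493815 had 31.1 ± 5.38 CPM in trained and 15.9 ± 9.39 CPM in untrained libraries (log2 fold change 1.04, SE 0.37, edgeR adjusted p 1). Values were 1.23 (SE 0.30) at the pCREB region of chr1:36361139-36361388 and 1.26 (SE 0.33) at that of chr11:79710601-79710854. The pCREB value was positive at 4 of the 9 leading higher GR regions with overlap and ran from -0.53 to 1.26. At the 6 leading lower GR regions with overlap it ran from -0.32 to 0.17, and 2 were negative.

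The deposited peak calls give another description of both groups. Of the 5307 listed GR regions, 4500 were called in 3 or 4 trained and 1887 in 3 or 4 untrained corticosterone libraries, and 1447 of these in both. The trained libraries were deeper on average, and the part of depth in these calls was not tested. The 3053 regions so called in trained rats alone included 2778 tested regions, whose median log2 fold change was 0.13 with 1855 positive. Of them 33.2% were negative, against 51.7% of all tested regions. The 440 so called in untrained rats alone included 399 tested regions, whose median was -0.46 with 371 (93.0%) negative. Regions called in both had a median of -0.19.

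The extreme case was regions called in all 4 trained and 0 untrained libraries, which numbered 79 of the 5307 listed, while 0 regions were called in 0 trained and 4 untrained libraries. Of the 79, 74 were tested, with a median log2 fold change of 0.50 and 70 positive. The calls were made from the same reads, so these values describe the lists and are no separate test. Without untrained library B, which had 513 calls, 1768 regions were called in all 3 other untrained libraries, 1374 of them also in 3 or 4 trained libraries. This left 3126 regions so called in trained rats alone and 394 in untrained rats alone, with medians of 0.14 and -0.50. Regions called in 4 trained and 0 of the 3 untrained libraries again numbered 79, while 36 regions were called in 0 trained and all 3 untrained libraries.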

How the data were processed

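GR and pCREB ChIP-seq libraries of rat hippocampus were compared as read counts per region. The submitters' processing notes name genome build rn6 and, without their settings, HTSeq 0.6.1-1, bedtools 2.26.0, MACS2 2.1.1.20160309 and BWA 0.7.10. The deposited values are raw counts. Library preparation used 15 PCR cycles, and sequencing runs of 51 bp and 65 bp were single-end, per the labels' protocols. Each count column holds a GR library at GR regions and a pCREB library at pCREB regions. A region is listed because peaks were called in these libraries, so the list is not independent of the groups.

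Tests used edgeR 4.0.16 under R 4.3.3 (robust quasi-likelihood fit, TMM, filterByExpr by group) in 1 model of 4 group means over the 16 libraries of an antibody, and with DESeq2 1.42.0. Adjusted p (Benjamini-Hochberg) under 0.05 was called. The biological coefficient of variation was 0.312 for GR. CPM are TMM-normalised, and spreads were taken on log2(CPM + 0.5). Library summaries were compared with exact permutation tests (scipy 1.17.1). Single regions were named by rule: the 10 smallest p in each direction, and the 10 hormone-responsive regions with the smallest hormone p and a mean log2 CPM above the median (7.21). Alternatives were other scalings, filters, thresholds, overlap limits and leaving out each library; spreads, level classes and peak-call counts were recomputed without untrained corticosterone library B as an alternative chosen after the data were seen. The tests were run on simulated counts first. Members, lists and tests were chosen with earlier results of these data known. No libraries of a corticosterone group were duplicates (lowest chi-square per degree of freedom 1.795). Gene annotation and genome sequence of build rn6 and input libraries were not used here.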

Additional observations from a re-analysis of the deposited data

Results flagged for a closer look

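In 68 groups of 4 libraries, the library farthest from the others was compared with the range of its group, and chance marks about 1 group in 20. The mitochondrial share of untrained corticosterone library B, 22.9%, stood far above the 8.87% to 10.6% of the other untrained libraries. The trained libraries held 7.66% to 17.3%. The part of this in the comparison was not tested beyond leaving the library out, which left 0 regions called.

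At chr10:75291146-75291478, among the 10 leading higher regions, trained corticosterone library A had 49.9 CPM, far below the 92.2 to 99.5 CPM of the other trained libraries. It was still above the untrained libraries, which had 25.7 to 41.7 CPM. It held 6 reads in that library.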

How the results depend on the processing

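No alternative called a GR region for training under corticosterone: 0 in 25 settings, with 116 (without untrained library D) to 340 (without untrained library C) regions at an unadjusted p under 0.05. The vehicle, interaction and pCREB comparisons also stayed at 0 in edgeR and DESeq2. With library letters as a replicate block 0 were called and 239 had an unadjusted p under 0.05. The letters do not pair libraries by any label. Same-letter deviations of GR libraries correlated at -0.03 to 0.42 (6 of 8 GR libraries correlated best with their own letter, a hint from the data). For pCREB libraries the same-letter values ran from -0.19 to 0.24. The fit on the 8 corticosterone libraries alone had 308 at an unadjusted p under 0.05.

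The median over all regions was 0.071 with scaling by total reads (2070 of 4968 negative), -0.062 with TMM factors from overlapping regions, and -0.027 to 0.028 when single libraries were left out. At overlapping regions it was 0.13 with total-read scaling and 0.03 to 0.10 without single libraries. Without single libraries it was -0.52 to -0.10 both at regions without overlap and at hormone-responsive regions. The difference in mitochondrial share, -0.124 percentage points, ran from -1.65 to 3.24 and was 1.57 without trained B, 0.538 without trained D and 3.24 without untrained B. The differences in the share without overlap (-5.15 to -1.04), hormone-responsive share (-0.589 to -0.0768), calls (854 to 1992) and log2 total (0.16 to 0.35) kept their sign. Without untrained B the median SD of untrained minus trained libraries stayed positive (0.0442 to 0.449 over the region classes), and regions called in no trained but all untrained libraries numbered 36, against 0 with it, as fewer libraries must hold a call.

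Among named regions, signs turned only at hormone-responsive ones: chr10:59884799-59885334 was 0.10 without untrained D (range without single libraries -0.55 to 0.10), and chr11:31424285-31424773 was 0.015 with total-read scaling, 0.11 without untrained D and 0.044 without trained A (-0.17 to 0.11). Further, chr16:48053796-48054088 was 0.17 without untrained D and 0.11 without trained C (-0.35 to 0.17), chr19:57346524-57346864 was 0.031 (-0.26 to 0.031) and chr17:40485671-40486256 was 0.19 (-0.40 to 0.19) without untrained A, and chr15:58884552-58885070 was 0.032 without untrained A and 0.042 without untrained D (-0.45 to 0.042). The cause was not tested. Few reads per region and 4 pools per group limit what could be detected.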

Other observations

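Beside the leading regions, 5 other regions had an unadjusted p under 0.05 for both antibodies, and they were looked at after their values were seen. The log2 fold changes of trained over untrained corticosterone were 0.82 for GR and 0.97 for pCREB at chr16:90665763-90666013, and 0.78 for GR and 0.89 for pCREB at chr10:36160877-36161136. They were 0.76 for GR and 0.68 for pCREB at chr9:13561222-13561765, and 0.96 for GR and 0.72 for pCREB at chr20:47586835-47587145. At chr3:6923928-6924270 they were -0.997 for GR and -0.995 for pCREB. No region passed after edgeR's adjustment, and both antibodies share their chromatin pools.

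Medians differed little between chromosomes. Among chromosomes with at least 20 tested GR regions, the median log2 fold change under corticosterone ran from -0.05 on chromosome 8 (301 regions) to 0.08 on chromosome 12 (219 regions).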
